A study of Acomys cahirinus and Mus musculus with 24 samples.

Results

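Gene expression in wounds of the African spiny mouse, Acomys cahirinus, was measured by RNA sequencing 7 days after injury and compared with that in unwounded skin of the same species. The genes described are the rows of the Acomys count table that carry a gene symbol, after spike-in RNAs were dropped. They number 16514 of 144683 rows, and 15283 of them passed the filter on low counts and were tested. Of the remainder, 128120 have no symbol but an assembly name, and 49 are spike-ins. All animals were adults. The skin group (day 0) was normal dorsal skin with no wound, and the wound group was tissue of full-thickness wounds, 8 mm across, excised from the back and taken at day 7, with 4 libraries in each group. Used beside them were 4 Acomys libraries of day 14 wounds and the libraries of Mus musculus, strain CD-1, treated the same way, of which day 0 has 3 libraries, after the submitters removed 1 for its quality, and day 7 has 4. The 4 Mus libraries of day 14 wounds entered only the fit that compared the species.

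A full-thickness wound passes through overlapping phases: neutrophils and then macrophages enter, keratinocytes at the margin migrate under the clot and divide, and fibroblasts and new vessels build a provisional matrix that is remodelled later. Rodent back skin also holds hair follicles with sebaceous glands, a layer of fat and a thin sheet of striated muscle, the panniculus carnosus, all of which a full-thickness excision removes. Spiny mice are known for regrowing follicles, glands, fat and muscle in such wounds with little scar. The strain of Acomys, the amount of old skin taken with each wound, and whether the libraries of a group came from separate animals are not given in the sources used here. The p-values therefore measure only the spread between libraries, which may be technical.

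Libraries held 12964930 to 17903440 counts at day 0 and 14354903 to 17494689 at day 7, spike-ins left out. Levels are CPM, counts over scaled library sizes. They are not divided by gene length, so that levels of different genes are not compared. Symbol rows took 77.8 to 80.4% of the counts in skin and 87.7 to 89.9% in the wound. The lowest correlation of log levels between libraries of one group was 0.960, and the highest between a skin and a wound library was 0.895. The defining keratins of epidermis (Krt5, Krt14, Krt1 and Krt10) were present in skin, at 743 to 1405 CPM summed over the 4 genes, although the Krt5 row alone held only 3.09 to 7.00 CPM. Markers of skeletal muscle were present in the same skin libraries at 3345 to 8079 CPM summed over 4 genes, beside those of adipocytes at 377 to 558 CPM. Albumin, a liver product, was listed at 49.9 to 111 CPM in skin and 8.86 to 18.9 CPM in the wound. Some libraries stood apart. Skin replicate 2 held far more hair keratin RNA than the other 3, skin replicate 1 more muscle and collagen RNA, wound replicate 1 the most remaining muscle RNA, and wound replicate 3 the most cytokine RNA, and values without them are given where they matter.

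In the fit reported, more genes were called different between wound and skin than were not. Neutrophil, macrophage, cytokine, provisional matrix, protease and proliferation genes were higher in the wound, and genes of adult muscle, fat, hair follicles, sebaceous glands and Schwann cells were lower. Of the 15283 genes tested, 4417 (28.9%) were called higher and 3816 (25%) lower, together 53.9%. That majority was lost in some other fits, such as the one without wound replicate 2, with 4031 higher and 3203 lower. A call means an adjusted p (Benjamini-Hochberg) under 0.05 in edgeR's quasi-likelihood test. The 4 wound and the 4 skin libraries did not overlap for 50.1% of genes, 26.4% with the wound above and 23.6% with the wound below. All changes given below without another unit are log2 fold changes, wound minus skin, and their median over all genes tested was 0.04. With calls this common, the count of a gene list is to be read against these shares. The plot of the list members gives all 39 gene lists at once.

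**Figure D1:**
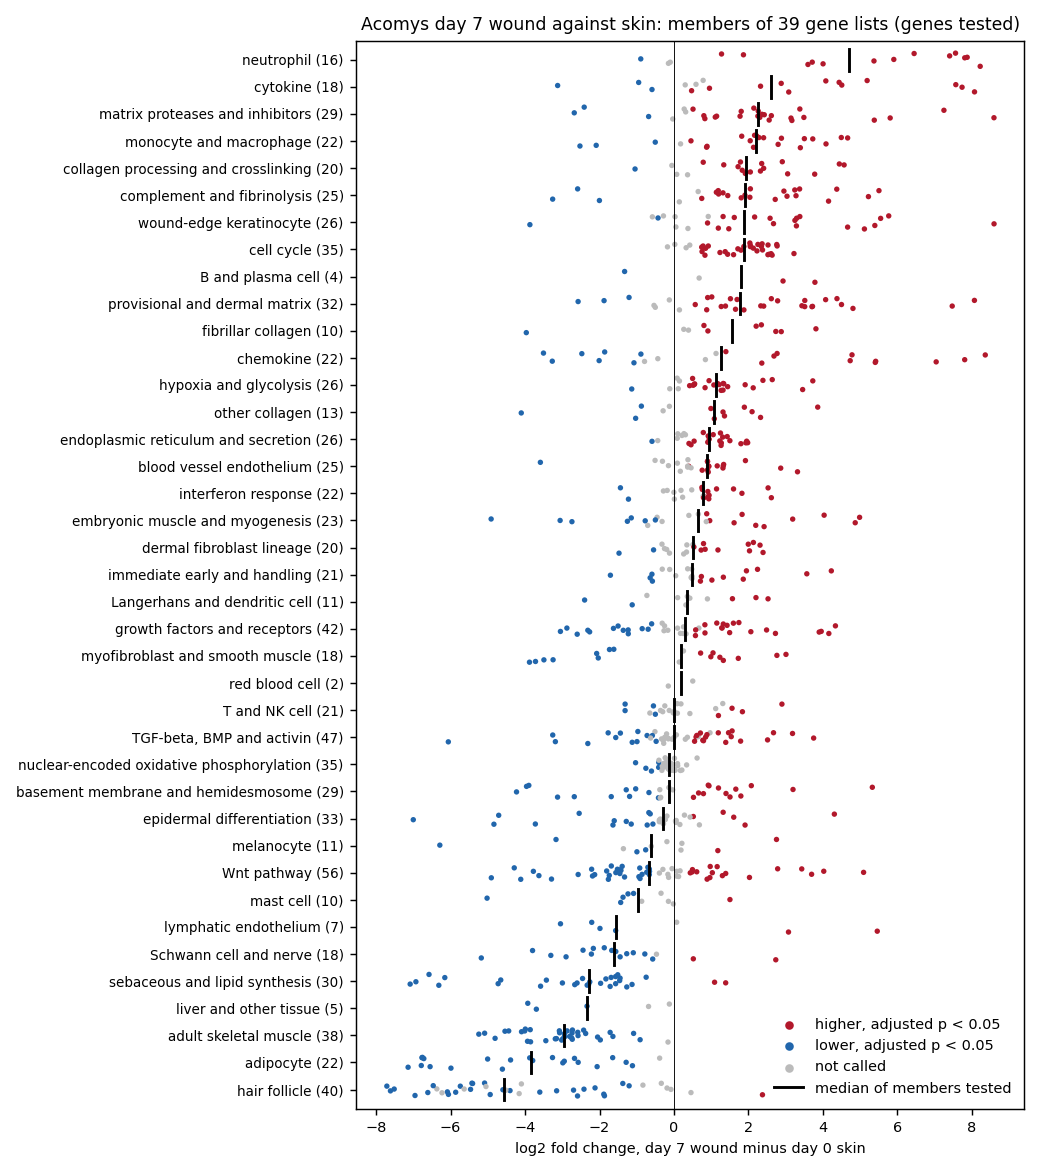
Members of 39 gene lists (rows, with the number of genes tested in brackets) by their log2 fold change, day 7 wound minus day 0 skin, 4 libraries each. Each dot is a gene, coloured by its call, black bars are list medians, and genes with no count in a group are drawn at their lower bound. The neutrophil list has the highest median, 4.69 with bounds, and the hair follicle list the lowest, -4.55.

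Neutrophil genes had the highest median of all lists. Of 16 tested, 13 were called higher and 1 lower, with a median log2 fold change of 4.95 (4.69 with Cxcr1 at its bound). S100a8, a calcium-binding alarmin that fills the neutrophil cytosol, stood at 4.47, 5.77, 3.54 and 7.54 CPM in the 4 skin libraries and at 1173, 1132, 778 and 938 CPM in the 4 wound libraries. The groups were far apart, with a log2 fold change of 7.56 (SE 0.45, adjusted p = 4.8e-08). S100a9, its partner, held 1.59, 2.23, 0.643 and 1.85 CPM in skin and 124, 102, 65.1 and 84.6 CPM in the wound, and rose by 5.90 (SE 0.67, adjusted p = 4.6e-05). The formyl peptide receptor Fpr1, which senses bacterial and mitochondrial peptides, went from 0–0.132 CPM in skin to 17.6–44.0 CPM in the wound, and the chemokine receptor Cxcr1 had no count in any skin library and 1.68 to 2.46 CPM in the wound, at least 41-fold higher with 3 counts over the skin group as the floor. Clec4d, a lectin receptor of myeloid cells, rose by 7.87 (skin replicate 4 held most of its few skin counts), Lcn2, which binds bacterial siderophores, by 6.45, and Ltf, lactoferrin, by 4.00. Camp, the cathelicidin of neutrophil granules, was the member called lower (-0.89, adjusted p = 0.04), and its groups overlapped. It stayed called in 2 of the 8 fits that each left out 1 library. Mmp8, the neutrophil collagenase, did not pass the test (-0.10). In bulk tissue, more cells of a type and more RNA per cell cannot be told apart. Which cell types held these transcripts was not tested.

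Macrophage genes were higher with few exceptions, 18 of 22 called higher and 3 lower, median 2.19. Cd163, a haemoglobin scavenger receptor of tissue macrophages, held 48.4, 15.9, 20.7 and 29.8 CPM in skin and 462, 592, 594 and 943 CPM in the wound. Every wound library lay far above every skin library, and the log2 fold change was 4.49 (SE 0.36, adjusted p = 4.0e-07). Cd14, the co-receptor for bacterial lipopolysaccharide, rose by 4.66, the scavenger receptor Msr1 by 4.08 (4.84 without skin replicate 4), and the complement subunits C1qa, C1qb and C1qc by 3.50, 3.73 and 3.39. Csf1r, the receptor that macrophages need to survive, rose by 2.16. Arg1 went the other way. This enzyme, which splits arginine and is widely used as a marker of repair-type macrophages in the mouse, stood at 72.8, 103, 56.5 and 129.8 CPM in skin and 12.1, 18.2, 14.15 and 18.5 CPM in the wound, with no overlap and a log2 fold change of -2.52 (SE 0.29, adjusted p = 7.4e-06). Nos2, which makes nitric oxide from the same arginine, rose by 2.41. Fcgr1, the high-affinity receptor for IgG, fell by 2.09. Cx3cr1, a fractalkine receptor, was called lower by 0.50 (adjusted p = 0.022) with overlapping groups, in 3 of 8 fits with 1 library left out. Trem2, a lipid-sensing receptor, was called higher, from 3.09–8.34 CPM in skin to 14.33–24.6 CPM in the wound, while Gpnmb, a glycoprotein of lipid-laden macrophages, did not pass (0.18, SE 0.24).

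Lymphocyte genes gave no common direction. Among 21 T and NK cell genes, 4 were called higher and 4 lower (2 lower without skin replicate 4 or without wound replicate 3), with a median of 0.00. The T cell receptor subunit Cd3e stood at 6.74, 6.54, 3.99 and 8.86 CPM in skin and 3.25, 9.85, 3.95 and 3.42 CPM in the wound. Wound replicate 2 was the highest of all 8 and the other 3 wound libraries were below the lowest skin library, and the change did not pass (-0.36, adjusted p = 0.42). Without wound replicate 2 it was called, at -0.85. Cd2, an adhesion molecule of T cells, rose by 2.90, Gzma, a protease of killer cells, by 1.84 and Cd8a by 1.19, while the killer cell receptor Klrk1 fell by 1.31 and the pore protein Prf1 by 1.31. Cd247, the zeta chain of the receptor, was called lower (-0.55) in the full fit and in 4 of 8 fits with 1 library left out. Of 4 B and plasma cell genes tested, Cd22 rose by 2.93 and Igj, the joining chain of secreted antibodies, fell by 1.33, with 2 called higher and 1 lower in all, median 1.80 (0.60 to 0.95 without any 1 of 5 libraries). Among 10 mast cell genes 5 were lower and 1 higher, median -0.98. Fcer1a, the IgE-binding subunit, fell from 2.44–7.48 CPM in skin to 0.0561–0.270 CPM in the wound (-5.02, SE 0.43), Il1rl1, the IL-33 receptor, fell by 1.43, and Hdc, which makes histamine, rose by 1.502. Of 11 genes of Langerhans and dendritic cells, 3 were higher (5 without wound replicate 1), among them Ccr7 (2.53) and Irf8 (2.20), and 2 were lower, Mycl (-2.40) and Itgax (-1.12).

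Inflammatory mediators included several of the steepest rises. Of 18 cytokine genes, 12 were called higher and 3 lower, median 2.60. Il1b, the main secreted product of the inflammasome, stood at 1.90, 1.54, 0.643 and 3.70 CPM in skin and 135, 97.5, 950.2 and 304 CPM in the wound. All wound libraries lay above all skin libraries, replicate 3 the highest of them, and the log2 fold change was 7.57 (SE 0.99, adjusted p = 1.7e-04; 6.53 without that replicate). Il24, a cytokine of the IL-10 family, had no count in skin and 5.67, 4.59, 32.9 and 9.79 CPM in the wound, at least 269-fold higher. Csf3, the growth factor of granulocytes, had 3 counts in all in skin and 15.7, 5.67, 19.6 and 8.11 CPM in the wound, and its ratio of levels was 251 with a counting interval of 86 to 1218. Il6, Il10 and Osm, which signal through the STAT3 pathway, rose by 4.43, 4.51 and 5.19. The 3 lower genes were Il18, Il34 and Csf1: Il18 fell by 3.12, Il34, which keeps Langerhans cells alive, by 0.95, and Csf1 by 0.59.

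Chemokines divided in both directions, 11 of 22 called higher and 7 lower, median 1.26. Cxcl2, which draws neutrophils, went from 0.735, 1.23, 0.322 and 1.85 CPM to 176, 79.9, 379 and 289 CPM, with no overlap (7.81, SE 0.63), and Cxcl1 and Cxcl5 rose by 5.40 and 4.78. Ccl3 rose by 8.36 and Ccl4 by 7.04 (skin replicate 4 held most of its few skin counts), and in both wound replicate 2 was the lowest of the wound libraries. Among the 7 lower genes were Ccl27a (-3.50), Ccl22 (-2.47) and Cxcl14 (-2.01). Complement and fibrinolysis genes rose together, 20 of 25 higher and 3 lower, median 1.91. Complement factor Cfb, of the alternative pathway, stood at 16.5, 6.54, 7.399 and 5.16 CPM in skin and 258, 343, 308 and 427 CPM in the wound (5.22, SE 0.35), and Plat, the tissue activator of plasminogen, rose by 4.37. Cfd, an adipocyte-made complement protease, fell by 3.26, in the same libraries in which the adipocyte genes were low, and the clotting initiator F3 by 2.00. In the interferon response list 12 of 22 were higher and 2 lower, median 0.77. Oasl1 (2.61), Gbp2 (2.53) and Irf7 (1.82) were among the first, and Oas1a (-1.44) and Usp18 (-1.22) were the second.

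Matrix genes of the provisional wound bed were higher, 25 of 32 against 3 lower, median 1.79. Tenascin C (Tnc), a matrix protein of embryonic and healing tissue, held 34.9, 28.01, 27.5 and 28.9 CPM in skin and 5133, 4698, 6834 and 4540.0 CPM in the wound. The spread inside each group was small beside the gap, and the log2 fold change was 7.47 (SE 0.26, adjusted p = 1.9e-12). Its relative Tnn rose by 8.07. Fibronectin (Fn1), the first scaffold on which cells move into a clot, stood at 326, 123, 238 and 207 CPM in skin and 5839, 4526, 5817 and 4065 CPM in the wound, with a log2 fold change of 4.498 (SE 0.26, adjusted p = 5.1e-10). Periostin (Postn) went from 1188–1773 CPM in skin to 3933–8876 CPM in the wound and rose by 1.88 (SE 0.25). The developmental fibrillin Fbn2 rose by 4.81, the hyaluronan synthases Has1 and Has2 by 3.70 and 3.43, and the proteoglycan Vcan by 3.72. Cilp, Ogn and Matn2, proteins of mature connective tissue, fell by 2.57, 1.88 and 1.21.

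Collagens changed unevenly. Of 10 fibrillar collagen genes 7 were higher and 1 lower, median 1.56, and of 13 other collagens 8 were higher and 3 lower, median 1.08. The 2 chains of type I collagen, the bulk of dermis and scar, did not pass. Col1a1 held 9992, 3071, 6326 and 4088 CPM in skin and 9161, 7418, 7418 and 6809.7 CPM in the wound, and skin replicate 1 was higher than any wound library. The log2 fold change was 0.39 (SE 0.29, adjusted p = 0.31), and 0.80 (called) without skin replicate 1. Col1a2 gave 0.26 (SE 0.27), and 0.67 (called) without that library. Col3a1, the collagen of young granulation tissue, was called higher by 0.80 (SE 0.24, adjusted p = 0.011) with overlapping groups, and missed the threshold, with adjusted p = 0.0509, when only symbol rows were fitted. The type V chains Col5a1, Col5a2 and Col5a3, which set fibril diameter, rose by 2.21, 2.35 and 2.73. Col24a1 rose by 3.81 and Col27a1 by 2.88, and Col11a2 fell by 3.97. Col12a1, which coats fibrils, went from 244, 131, 189 and 155 CPM to 2972, 2369, 2929.8 and 2184 CPM (3.86, SE 0.23, adjusted p = 3.9e-10). Type VI chains Col6a1 and Col6a2 rose by 2.32 and 2.10, while Col6a5 fell by 4.10 (-3.48 without skin replicate 4) and Col15a1 by 0.88.

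Genes that make, crosslink and cut collagen were higher as groups. Of 20 processing and crosslinking genes 16 were higher and 1 lower, median 1.92. Lox, the oxidase that starts crosslinks, rose from 27.0–38.3 CPM in skin to 401–487 CPM in the wound (3.78, SE 0.17), the prolyl hydroxylase subunit P4ha3 rose by 4.57 and the lysyl hydroxylase Plod2 by 4.44. P3h2 fell by 1.05. Of 29 matrix proteases and inhibitors 23 were higher and 3 lower, median 2.25. Mmp13, the main rodent interstitial collagenase, stood at 1.10, 0.154, 0.0643 and 0.331 CPM in skin and 198, 151, 181 and 146 CPM in the wound. Skin was near 0 in all but replicate 1, and the log2 fold change was 8.59 (SE 0.38, adjusted p = 1.8e-10; 9.81 without skin replicate 1). The gelatinase Mmp9 rose by 7.25 and the aggrecanase Adamts4 by 5.80. Of the inhibitors, Timp1 rose from 24.5, 16.5, 11.8 and 19.6 CPM to 139.5, 188, 279 and 209 CPM (3.49, SE 0.24), whereas Timp3 fell by 2.68 and Timp4 by 2.41. Mmp28, of resting keratinocytes, was called lower (-0.68), and in 4 of 8 fits with 1 library left out.

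The basement membrane list moved both ways, 13 of 29 higher and 11 lower, median -0.14. Lama1, a laminin chain, went from 0.490, 0.154, 0.257 and 0.595 CPM in skin to 16.7, 12.1, 21.3 and 12.3 CPM in the wound, with no overlap (5.33, SE 0.31), and the anchoring fibril collagen Col7a1 rose by 2.08. Frem2, which links epidermis to dermis, fell by 4.23, Col4a3 by 3.96 and Lamc3 by 3.90. Contractile genes also divided, 8 of 18 higher and 8 lower, median 0.20. Acta2, the actin of smooth muscle and of myofibroblasts, the contractile cells of scars, stood at 145, 244, 133 and 162 CPM in skin and 196, 253, 388 and 287 CPM in the wound. The groups overlapped, and the change was called at 0.71 (SE 0.20, adjusted p = 0.0084). Itga11 and Cdh11, an integrin and a cadherin of activated fibroblasts, rose by 3.01 and 2.76. Among the lower ones were genes of mature smooth muscle: Myh11 fell by 3.49, Lmod1 by 3.72 and Itga8 by 3.88. Of 20 genes of the dermal fibroblast lineage 10 were higher, such as Cd248 (2.13) and Mfap2 (2.03), and 2 were lower, median 0.52. These 2 were Lrig1 (-1.48) and Tbx15 (-0.55), and the latter was not called without skin replicate 1 or without wound replicate 2.

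**Figure D2:**
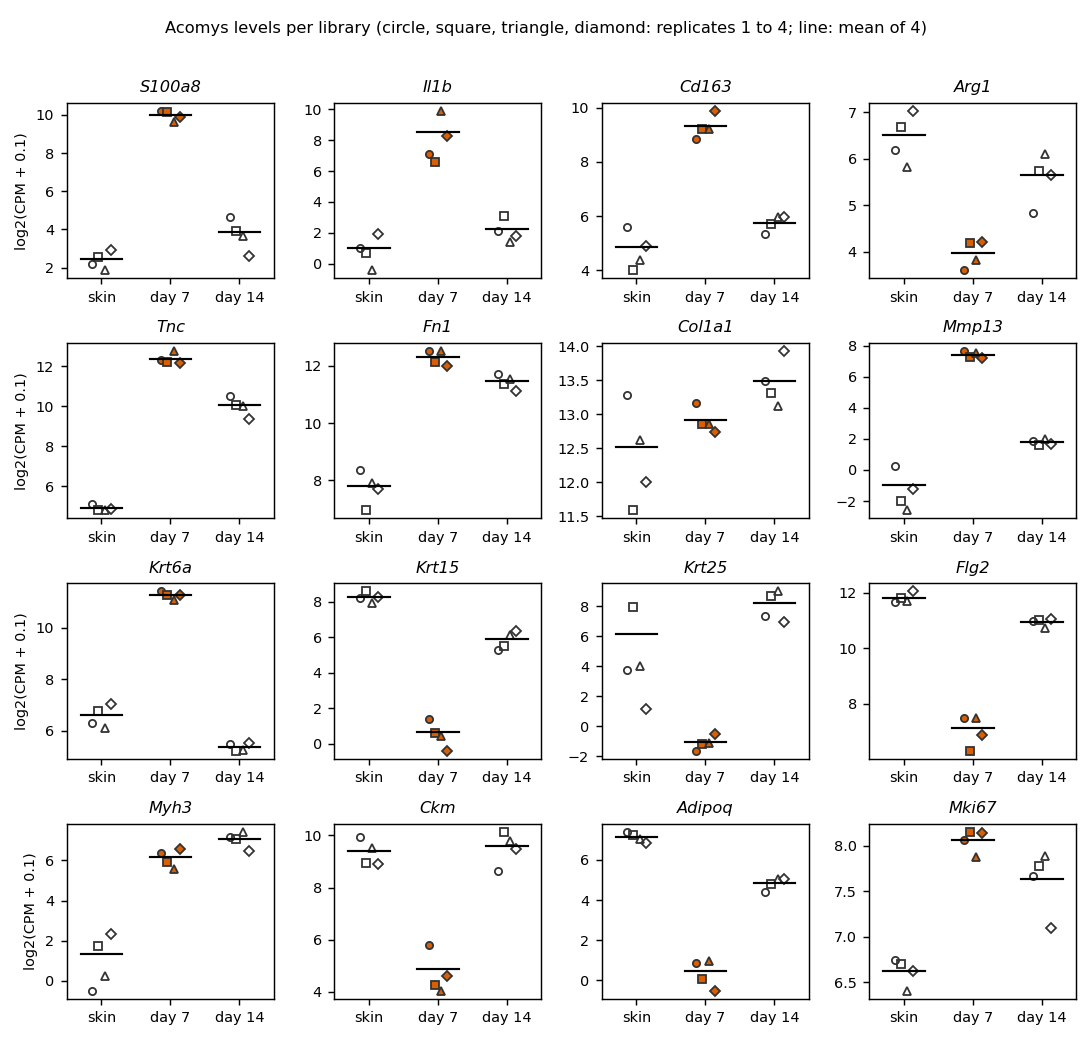
Levels of 16 genes in every library of Acomys skin, day 7 wound (orange) and day 14 wound, as log2(CPM + 0.1), with the replicate shown by the symbol and the mean of 4 by a line. S100a8 and Krt6a separate wound from skin without overlap, Col1a1 overlaps, and Krt25 in skin replicate 2 (251 CPM) stands above the other skin libraries.

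Keratinocyte genes of the wound margin were higher, 18 of 26 against 2 lower, median 1.89 (2.44 without skin replicate 4). Krt6a, a keratin that keratinocytes switch on when they migrate, held 79.6, 108, 68.3 and 133 CPM in skin and 2712, 2491, 2147 and 2478 CPM in the wound. No library was near the other group, and the log2 fold change was 4.66 (SE 0.20, adjusted p = 9.7e-12). Krt6b rose by 5.77, and their usual companions did not pass. Krt16 stood at 13.2, 25.5, 15.1 and 22.9 CPM in skin and 15.7, 19.6, 14.62 and 13.2 CPM in the wound (-0.28, SE 0.20, adjusted p = 0.27). Krt17 stood at 2.02, 7.46, 2.06 and 4.23 and 4.54, 3.51, 3.42 and 4.44 CPM (0.03, SE 0.33), with a sign that changed with the library left out. Whether these rows hold the same genes as in the mouse was not tested. The cyclooxygenase Ptgs2 rose by 5.39, the antiprotease Slpi by 5.11, the growth factor Hbegf by 3.25, and the fibronectin receptor subunit Itga5 by 3.38. The gap junction genes Gjb2 and Gjb6 rose by 3.29 and 2.58, and Hmga2, a chromatin protein of growing cells, by 3.29. Sox6 fell by 3.87. Fst, which binds activin, was called lower (-0.43) with overlapping groups, and in 3 of 8 fits with 1 library left out.

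Differentiation genes of the epidermis were split, 5 of 33 higher, 13 lower and 15 not called, median -0.29. Flg2, a filaggrin-like protein of the horny layer, fell from 3248, 3637, 3309.7 and 4256 CPM to 178, 78.8, 180.0 and 117 CPM (-4.71, SE 0.24, adjusted p = 4.0e-11). Loricrin (Lor), a main cornified envelope protein, stood at 26.7, 38.9, 26.6 and 37.7 CPM in skin and 5.95, 3.91, 6.604 and 5.71 CPM in the wound, with no overlap (-2.55, SE 0.18). Krt77, a keratin of sweat ducts and upper epidermis, fell by 7.00 and Krt2 by 4.83. The suprabasal keratins Krt10 and Krt1 did not pass. Krt10 held 277 to 383 CPM in skin and 388, 211, 221 and 181 CPM in the wound (-0.39, SE 0.20), with wound replicate 1 above every skin library, and it was called lower without that replicate (-0.67). Krt14, the basal layer keratin, rose from 362–832 CPM in skin to 2069–2462 CPM in the wound (1.91, SE 0.21). Repetin (Rptn) rose by 4.31, the ceramide synthase Cers3 by 1.604 and the transglutaminase Tgm1 by 1.32, while Trp63, the master factor of stratified epithelia, fell by 1.605.

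Many of these genes lie side by side in the mouse genome, in the epidermal differentiation complex on chromosome 3, and its members, a set chosen after their values were seen, were followed in the gene order of GENCODE vM21. Of 44 genes from S100a1 to S100a10, all tested, 25 were called higher and 8 lower, median 1.34. The small proline-rich Sprr genes, crosslinked into envelopes, gave 7 higher and 1 lower of 9, and the late cornified envelope (Lce) genes 9 higher of 10. Sprr2f had no count in skin and 33.0, 21.9, 30.1 and 19.6 CPM in the wound, at least 528-fold higher. Sprr2i and Lce3d, also without a count in skin, were at least 96-fold and at least 21-fold higher. Sprr2h went from 0.674, 0.462, 0.193 and 0.397 CPM to 256, 191, 149 and 159 CPM (8.74, SE 0.40) and Lce3f from 0.306, 0, 0 and 0 CPM to 38.7, 57.7, 27.1 and 35.6 CPM (8.77, with all skin counts in replicate 1). Sprr1b rose by 5.55 (6.68 without skin replicate 4) and Sprr2d by 8.59. Between these risers lay genes that fell: Lor, Flg2, Sprr4 by 6.73, and Tchh, the inner root sheath protein trichohyalin, by 6.95 (-4.84 without skin replicate 2). Sprr, Lce and S100 genes are close copies of one another, and the counting may have divided reads between them. By day 14, Sprr2f stood at 0, 0, 0 and 0.0512 CPM and Sprr2h at 1.004, 0.0767, 0.413 and 0.256 CPM.

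**Figure D3:**
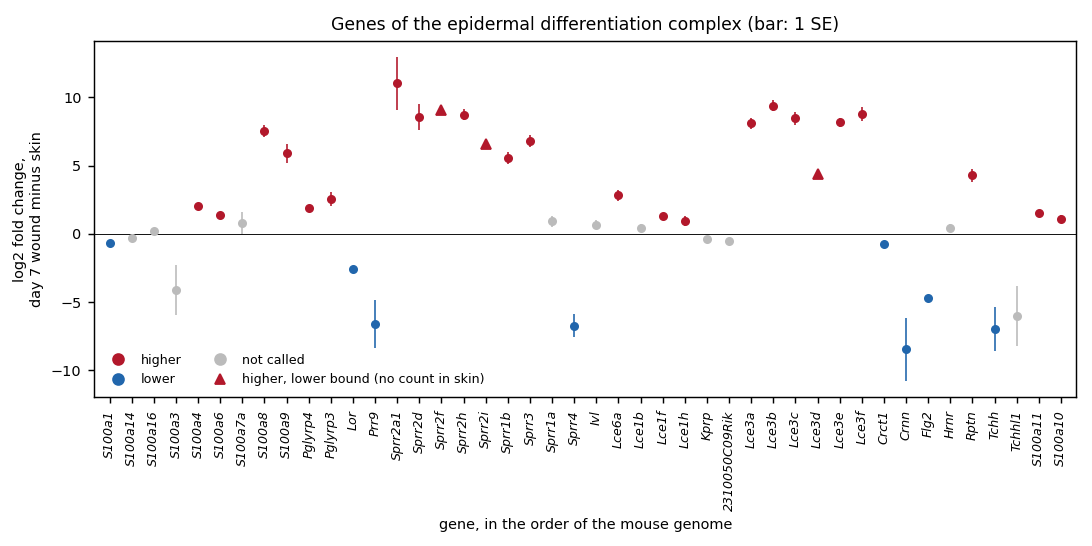
Log2 fold change, day 7 wound minus day 0 skin, of 44 genes of the epidermal differentiation complex in the order of the mouse genome, with 1 SE as bar and the call as colour. Triangles are genes with no skin count, drawn at their lower bound; most Sprr and Lce genes lie above 0, and Lor, Sprr4 and Flg2 lie below it.

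Hair follicle genes were lower, 27 of 40 against 1 higher, with a median of -4.99 (-4.55 with bounds and -2.81 without skin replicate 2). Their summed level was 763, 2015, 703 and 728 CPM in skin and 111 to 155 CPM in the wound. Krt15, a keratin of bulge stem cells and basal cells, stood at 300.2, 380.4, 246 and 309.5 CPM in skin and 2.52, 1.42, 1.24 and 0.661 CPM in the wound. All skin libraries were alike and far above the wound (-7.71, SE 0.38, adjusted p = 1.3e-09). Krt25, a keratin of the inner root sheath made while a hair grows, was uneven in skin at 13.5, 251, 15.9 and 2.12 CPM, replicate 2 standing out, and low in every wound library at 0.224, 0.337, 0.354 and 0.601 CPM. Its log2 fold change was -7.51 (SE 1.76, adjusted p = 0.0067), and -4.78 without skin replicate 2. The Wnt-amplifying stem cell receptors Lgr5 and Lgr6 fell by 1.89 and 5.43, the ectodysplasin receptor Edar by 5.41, and the follicle factors Lhx2 and Sox9 by 5.46 and 2.42. Shh, the morphogen of growing follicles, stood at 0.674, 0.846, 1.35 and 0.728 CPM in skin and 0.0561, 0.202, 0.413 and 0.3003 CPM in the wound (-1.87, SE 0.45, adjusted p = 0.0024). The hair cortex keratins Krt34, Krt81 and Krt86 rested on skin replicate 2 in the same way, with Krt86 at 2.76, 85.0, 1.35 and 0.595 CPM in skin and 0.449, 0.675, 0.295 and 0.360 CPM in the wound (-5.63, SE 2.18), and did not pass. Hair keratins are close copies of one another, and the counting may have divided reads between them. Msx1 was the member called higher (2.38), and Lef1, a mediator of Wnt signals, did not pass (0.46).

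Sebaceous gland and fat genes were lower almost throughout. Of 30 sebaceous and lipid synthesis genes 28 were lower and 2 higher, median -2.28, and their summed level was 9901 to 13513 CPM in skin and 1527 to 1698 CPM in the wound. The 2 higher genes were the desaturases Fads1 (1.39) and Fads2 (1.09). Scd1, the desaturase of sebum and fat, held 832, 697, 1057 and 285 CPM in skin and 32.0, 30.3, 21.9 and 24.9 CPM in the wound (-4.72, SE 0.33, adjusted p = 7.4e-08). Mc5r, the melanocortin receptor of sebocytes, fell by 7.08, the wax synthase Awat2 by 6.58 and the fatty alcohol enzyme Far2 by 6.93 (-7.54 without wound replicate 1). Of 22 adipocyte genes 21 were lower and 0 higher, median -3.83. The hormone Adipoq stood at 170.1, 149, 132 and 113 CPM in skin and 1.74, 0.944, 1.83 and 0.601 CPM in the wound (-6.77, SE 0.28, adjusted p = 1.2e-11), and the lipid droplet gene Cidec fell by 7.14.

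Genes of adult muscle were lower in the wound, and those of embryonic muscle and muscle formation went both ways. Of 38 genes of adult skeletal muscle 37 were lower and 0 higher, median -2.94. Their summed level was 44090, 15251, 20761 and 13956 CPM in skin and 5198, 2165, 1833 and 3234 CPM in the wound, so that skin replicate 1 was highest and all wound libraries lay below all skin libraries. Ckm, muscle creatine kinase, held 992, 496, 724 and 474 CPM in skin and 55.9, 19.2, 16.2 and 24.3 CPM in the wound (-4.54, SE 0.51, adjusted p = 2.8e-05). The calcium pump Atp2a1 fell by 4.80 (-5.65 without wound replicate 1), the myosin binding protein Mybpc2 by 5.24, the fast myosin chains Myh1 and Myh4 by 3.85 and 3.86, and the slow chain Myh7 by 4.44. Acta1, the sarcomeric actin, fell less than most, from 1221, 623, 799 and 672 CPM to 406, 352, 408 and 400.2 CPM (-1.08, SE 0.23, adjusted p = 7.9e-04). Tnni1, the slow troponin I that embryonic muscle also uses, was the member that did not pass (-0.16).

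Of 23 genes of embryonic muscle and of muscle formation, 10 were higher and 7 lower (4 lower without skin replicate 1 or without wound replicate 3), median 0.65. Myh3, the embryonic myosin heavy chain, stood at 0.613, 3.23, 1.09 and 4.96 CPM in skin and 83.1, 60.8, 46.8 and 95.1 CPM in the wound. Every wound library was many times above every skin library, with a log2 fold change of 4.87 (SE 0.53, adjusted p = 2.4e-05; 5.50 without skin replicate 4). The embryonic light chain Myl4 rose by 4.98 (skin replicate 3 held most of its few skin counts), cardiac actin Actc1, the actin of embryonic muscle, by 4.03, the embryonic troponin Tnnt2 by 2.42 and the fetal acetylcholine receptor subunit Chrng by 2.20. Myog, the factor that drives myoblasts to differentiate, stood at 1.53, 0.616, 0.579 and 2.71 CPM in skin and 5.39, 3.71, 3.24 and 4.504 CPM in the wound (1.61, SE 0.35, adjusted p = 0.0012; 2.20 without skin replicate 4), and the fusion protein gene Tmem8c rose by 0.88. Myod1, the determination factor, gave 3.31, 1.62, 1.48 and 1.85 and 1.91, 0.944, 1.002 and 1.201 CPM and did not pass (-0.71, adjusted p = 0.1), although it was called lower without wound replicate 1 (-0.96). Pax7 and Myf5, of satellite cells, did not pass either (0.65 and 0.87). Myh8, the perinatal myosin, went against Myh3: skin held 1.10, 0.385, 0.772 and 0.397 CPM, and the wound libraries held 1 count in all, for a ratio of skin to wound of 45 (counting interval 8 to 1832). Musk, the kinase of the neuromuscular junction, fell by 3.06, Chodl by 2.74 (-3.35 without wound replicate 3) and Myf6, of maturing fibres, by 1.15. Actc1 and Acta1, and the myosin heavy chains, are close in sequence, and the counting may have divided reads between them.

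**Figure D4:**
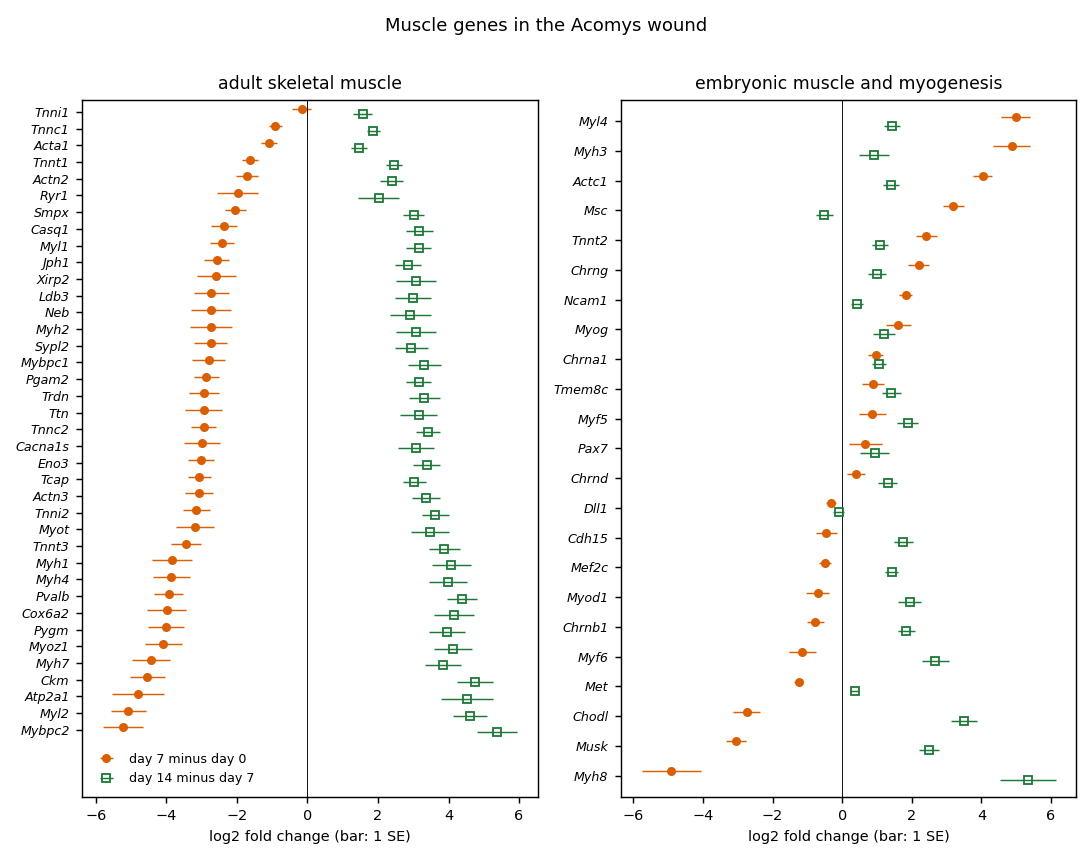
Log2 fold change with 1 SE of each gene of adult skeletal muscle (left) and of embryonic muscle and myogenesis (right) in Acomys, for day 7 minus day 0 (filled) and day 14 minus day 7 (open); both comparisons use the same day 7 libraries. In the left panel the filled points lie at or below 0 and the open points above it; in the right panel Myl4, Myh3 and Actc1 have the highest filled points.

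Vessel genes were higher, 15 of 25 against 1 lower, median 0.90. Pecam1, an adhesion molecule of all endothelium, stood at 115, 121, 95.2 and 125 CPM in skin and 180.5, 201, 255 and 217 CPM in the wound, with no overlap (0.90, SE 0.14, adjusted p = 3.1e-05). Apln, a peptide of sprouting tips, rose by 3.32, Selp, which catches leukocytes, by 2.87 (2.04 without wound replicate 3) and the angiopoietin receptor Tek by 1.92, while Sele fell by 3.59 and Kdr, the main VEGF receptor, did not pass (0.37). Of 7 lymphatic genes Pdpn (5.46) and Lyve1 (3.07) were higher, genes that fibroblasts and macrophages also use, and 4 were lower, among them Mmrn1 (-3.05), Stab2 (-2.21) and the lineage factor Prox1 (-1.99). Schwann cell and nerve genes were lower, 15 of 18 against 2 higher, median -1.62. Gldn, of the nodes of axons, held 14.52, 11.8, 16.5 and 12.4 CPM in skin and 0.337, 0.202, 0.767 and 0.180 CPM in the wound, replicate 3 the highest of the wound libraries (-5.17, SE 0.31, adjusted p = 2.9e-10; -5.77 without that replicate). The myelin gene Mbp fell by 0.78, and Gap43, of growing axons, rose by 2.73. In the melanocyte list 2 of 11 were higher, Slc24a5 (2.75) and Ednrb (1.18), and 4 lower, among them Kit (-0.996) and Mitf (-0.76), median -0.61. The steepest fall was that of Mlana, from 1.09–2.92 CPM in skin to 1 count in all in the wound (ratio 115, counting interval 20 to 4581). The pigment enzyme Dct was low everywhere, at 0.551, 1.23, 0.450 and 1.26 CPM in skin and 0.393, 0.202, 0.413 and 0.3003 CPM in the wound, and did not pass (-1.36, adjusted p = 0.083).

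Genes of cell division were higher, 31 of 35 and 0 lower, median 1.88. Mki67, present in all dividing cells, stood at 107, 104, 84.6 and 98.8 CPM in skin and 268, 285, 236 and 282 CPM in the wound, and the log2 fold change was 1.44 (SE 0.16, adjusted p = 4.9e-07). Top2a, which untangles DNA, went from 37.4–59.3 CPM in skin to 148–201 CPM in the wound (1.88, SE 0.22). The mitotic kinase Plk1 rose by 3.22, cyclin Ccnb1 by 2.77 and the checkpoint kinase Bub1 by 2.76, and the replication helicase genes Mcm3 to Mcm6 by 0.78 to 0.92. Pcna and Mcm2 did not pass (0.42 and 0.33). Of 26 genes of hypoxia and glycolysis 21 were higher and 1 lower, median 1.12: the lactate exporter Slc16a3 rose by 3.73, adrenomedullin (Adm) by 3.45 and the glucose carrier Slc2a1 by 2.64, and Aldoa, the aldolase form of muscle, fell by 1.13. Genes of the endoplasmic reticulum and secretion gave 19 higher and 1 lower of 26, median 0.93, with Pdia4, which folds secreted proteins, at 1.93. Nuclear genes of oxidative phosphorylation had few calls, 0 higher and 5 lower of 35, median -0.13, and the count of lower genes ran from 3 to 8 when single libraries were left out and was 11 when only symbol rows were fitted. Of 21 immediate early and handling genes 9 were higher and 4 lower, median 0.49. Socs3, a brake on cytokine signals, rose by 4.22. Fos, a gene that tissue handling can raise, stood at 4.78, 34.7, 6.11 and 3.51 CPM in skin and 42.2, 23.4, 115 and 49.2 CPM in the wound and was called higher (2.24, adjusted p = 0.041), in 2 of 8 fits with 1 library left out. The part of handling in these values was not tested.

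Genes of the signalling pathways went in both directions, as did all genes tested, of which 28.9% were called higher and 25% lower. In the Wnt list 17 of 56 were higher and 30 lower, median -0.66. Among the ligands, Wnt2 rose from 2.63, 1.85, 1.48 and 1.79 CPM to 44.7, 101, 62.7 and 58.0 CPM (5.09, SE 0.27), Wnt2b by 4.02, and Wnt5a, which signals without beta-catenin, went from 31.7, 19.5, 28.2 and 24.3 to 47.1, 32.7, 46.3 and 32.9 CPM (0.61, SE 0.18, adjusted p = 0.0089). The Wnt agonist Rspo4 fell by 4.90 (wound replicate 1 held most of its few wound counts). Of the secreted modulators, Sfrp2 rose by 3.69, and Sostdc1 and Frzb fell by 4.29 and 4.11. In the TGF-beta, BMP and activin list 18 of 47 were higher and 13 lower, median 0.00. The activin subunit Inhba rose by 2.67 (2.08 without wound replicate 3) and the secreted Fstl1 by 3.18. Mstn, the muscle-made brake on muscle growth, fell from 36.3, 29.0, 36.4 and 19.1 CPM to 1.40, 0.0675, 0.177 and 0.0601 CPM (-6.06; -8.07 without wound replicate 1), Ltbp4, which stores latent TGF-beta, by 3.26, and the BMP antagonist Grem1 by 3.18. Of 42 growth factors and receptors 19 were higher and 13 lower, median 0.29. The heparin-binding factors Ptn and Mdk, both abundant in embryos, rose by 4.33 and 4.16, and neuregulin Nrg1 by 3.95, while Egf fell by 3.05, Igfbp2 by 2.88 and Fgfr2, the receptor of epithelia, by 2.60.

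The largest single changes were taken from 5841 called genes whose groups did not overlap and whose mean over the 8 libraries was at least 5 CPM, 3196 of them higher. Ranks follow the fitted change, which depends on the prior count for genes with few or no counts in a group, so membership near rank 10 is not firm. Among the 10 rises so ranked, 6 belong to the Sprr and Lce families (Sprr2f, Sprr2a1, Lce3b, Lce3f, Sprr2h and Sprr2d). The others are Saa3, Tmprss11g, Il24 and Mmp13. Saa3, an acute-phase protein made in inflamed tissue, had no count in skin and 17.6, 27.7, 18.8 and 16.8 CPM in the wound, at least 399-fold higher. Tmprss11g, a membrane protease gene of epithelia, had none in skin and 17.1, 19.6, 6.49 and 14.53 CPM in the wound, at least 286-fold higher. Among the 10 largest falls were the sebaceous acyltransferase relative Dgat2l6, at 20.2, 44.0, 22.3 and 59.2 CPM in skin and 2 counts in all in the wound (ratio 1183, counting interval 327 to 9776), and Igfl3, from 31.4–53.5 CPM in skin to 0–0.118 CPM in the wound (-9.29, SE 0.53). Aldh3a1, an aldehyde dehydrogenase of surface epithelia, fell by 7.83 (-9.12 without wound replicate 1), and the succinate receptor Sucnr1 by 7.55. Krt40 fell with a ratio of 285 (97 to 1383). Fabp9, Krtap6-5 and Krt33a rested on skin replicate 2, which held 106, 41.6 and 36.2 CPM of them, and each was called in 3 of 8 fits with 1 library left out.

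The day 14 wound was then set beside the day 7 wound. This comparison shares the day 7 libraries with the one above, so the values are set side by side only. Of the 15283 genes, 3017 (19.7%) were called higher at day 14 than at day 7 and 2307 (15.1%) lower, together 34.8%. Adult muscle genes gave 38 of 38 higher at day 14, median 3.25, and Ckm stood at 397, 1135, 875 and 705 CPM. Embryonic muscle genes gave 17 of 23 higher and 0 lower. Myh3 held 141, 134, 172 and 89.3 CPM, not called against day 7 (0.91, adjusted p = 0.15), Myog held 9.14, 10.1, 12.0 and 7.78 CPM (1.204), and Myod1, not called at day 7, was 1.93 higher (adjusted p = 1.8e-04). Hair follicle genes gave 36 of 40 higher, median 5.98. Krt25 held 161, 405, 507 and 123 CPM and Shh 3.70, 6.22, 7.37 and 4.15 CPM, above every day 7 library and, for Shh, above every skin library too. Adipocyte genes gave 18 of 22 higher, with Adipoq at 20.8, 27.8, 33.0 and 33.1 CPM, still below each skin library.

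Inflammatory and epidermal wound genes were lower at day 14 than at day 7: neutrophil genes in 16 of 16, wound-edge genes in 21 of 26, with 3 higher, hypoxia and glycolysis genes in 23 of 26, with 1 higher, and cell cycle genes in 25 of 35. S100a8 stood at 25.3, 15.0, 12.5 and 6.04 CPM and Il1b at 4.33, 8.44, 2.54 and 3.38 CPM. Krt6a stood at 44.8, 37.4, 37.7 and 45.4 CPM, below every skin library. The macrophage list was mixed, 10 of 22 lower and 4 higher: Cd163 fell by 3.58, Msr1 was not called (-0.21), and Gpnmb, not called at day 7, was 1.55 higher (adjusted p = 2.2e-04). Trem2 was higher again (1.33) and Arg1 stood at 28.3, 53.4, 68.4 and 49.9 CPM (1.67, adjusted p = 5.9e-04). Tnc and Fn1 fell by 2.34 and 0.85, Postn was not called (0.52), and Fbn2 rose further (1.72). Col3a1 was called higher (0.70, adjusted p = 0.039), a call lost under several other settings.

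The day 7 change was then set against the same change in CD-1 mice, by a test of the difference between the 2 changes in the table shared by both species. Gene models differ between species, so changes and not levels were compared, and values differ from those above. The shared table was counted separately, and its fit held other libraries and features. The part of each in these differences was not tested. Of 14514 genes tested, the change in Acomys was above that in Mus for 2486 (17.1%) and below it for 2707 (18.7%), together 35.8%. Of 40 genes chosen across the lists, the difference was called above 0 for 6 and below 0 for 12, and was not called for 22.

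Among macrophage genes, Arg1 changed in opposite directions. It was 58.9 to 103 CPM in Acomys skin and 10.5 to 16.4 CPM in the Acomys wound, and 16.6 to 28.3 CPM in Mus skin and 478 to 714 CPM in the Mus wound. The log2 change was -2.51 in Acomys and 4.70 in Mus, a difference of -7.21 (SE 0.86, adjusted p = 3.7e-06). Trem2 rose less in Acomys (1.76 against 4.09; difference -2.33, adjusted p = 0.0016), and Gpnmb, which fell in Mus by 2.14, gave a difference of 2.22 (adjusted p = 6.7e-05). The neutrophil and cytokine genes S100a8, S100a9 and Il1b rose in both (S100a9 in Acomys by 7.77, against 5.90 in its own table), and their differences of -1.42, -0.81 and -1.33 (SE 0.76, 1.201 and 1.19) were not called. In the matrix, Fn1 rose more in Acomys (2.01, SE 0.37, adjusted p = 2.6e-04), Col12a1 (-2.03) and Timp1 (-1.58) rose less, and Col1a2 gave 1.30 (adjusted p = 0.01) and fell in Mus by 1.12. Tnc (0.93, adjusted p = 0.071) and Col1a1 (1.15, adjusted p = 0.062) missed the threshold and passed it under other settings.

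Of the keratinocyte genes, Krt6a rose by 4.73 in Acomys and 4.71 in Mus, and the difference of 0.01 (SE 0.41) was not called. Krt16 was 1.67 to 4.16 and 1.75 to 3.83 CPM in Acomys skin and wound, and 4.39 to 16.9 and 552 to 1057 CPM in Mus, a difference of -6.58 (SE 0.65, adjusted p = 2.6e-07). The Krt17 row held 0.836 to 2.59 CPM in Acomys skin and 413 to 490.3 CPM in Mus skin, and its difference (-1.47, adjusted p = 0.048) was called in 3 of 15 fits with 1 library left out. Krt5 gave 1.14, from rows that held 2.51 to 7.32 CPM in Acomys skin and 212 to 232 CPM in Mus skin. Whether they hold the same gene was not tested. Krt15 gave -1.64 and Lor -1.69; the last was not called without Mus wound replicate 2 or 3. Myh3 rose by 4.80 in Acomys and was 5.99 to 7.27 CPM in Mus skin and 0.270 to 10.4 CPM in the Mus wound, a difference of 4.77 (SE 0.87, adjusted p = 3.3e-04). Ckm (-1.36, SE 1.78) and Acta1 (2.45, SE 1.56) were not called. The Mus wound libraries were uneven in both, with Ckm at 2.43 to 299 CPM and Acta1 at 6.49 to 562 CPM. The fall of Acta1 in Acomys was not called in the shared table (-1.09, SE 1.07, against -1.08, SE 0.23, in its own table). Its Acomys libraries did not overlap there either, at 803 to 1621 CPM in skin and 471 to 588 CPM in the wound. The SE in that fit draws on the spread in all groups of both species. The cause of the larger SE was not tested. Adipoq fell more in Acomys (-3.74, adjusted p = 0.0051), Pecam1 (-1.16) and Wnt5a (-1.10) rose less, and Top2a rose more (0.71; not called without Mus skin replicate 4). Krt25 was 0 to 0.1497 CPM in Mus skin and 0.549 to 89.3 CPM in the Mus wound, so the size of its fitted difference depends on the prior count.

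**Figure D5:**
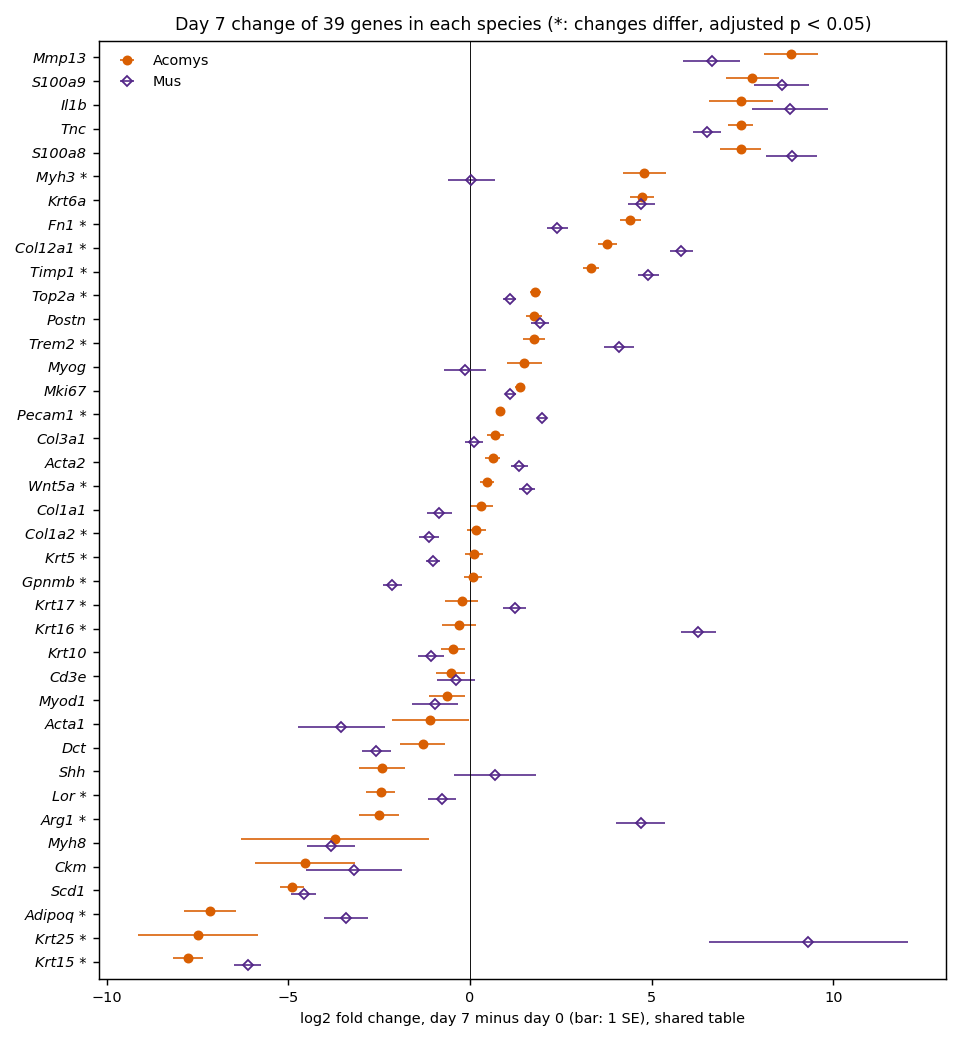
Log2 fold change, day 7 minus day 0, with 1 SE, of 39 genes in Acomys (circles, 4 against 4 libraries) and Mus (diamonds, 4 against 3 libraries), from the shared table; asterisks mark genes whose changes differ, with adjusted p under 0.05. Arg1, Krt16 and Krt25 lie far apart, and the Krt6a points coincide. The Krt25 value of Mus rests on skin libraries at or near 0.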

How the data were processed

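Total RNA of dorsal skin and wounds was sequenced in 4 Acomys libraries per day and, for the species comparison, in Mus libraries. A pooled Acomys library was not analysed here. Per the submitters' processing notes, reads were handled with FastQC 0.11.4, Trimmomatic 0.32, Bowtie2 and RSEM 1.2.28, and the mouse build mm9 is named. The role of each tool and the way symbols were given to Acomys rows are not given in the sources used here. The deposited Acomys table holds expected counts per feature, as the authors' RSEM estimated them, and 6.98% of its values are not whole. They were rounded to whole counts. The counts of the table shared by both species were used without rounding. Spike-ins were dropped from library sizes and tests.

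Depth was 12964930 to 18315418 counts per Acomys library. Features were filtered with filterByExpr, scaled by TMM and tested with edgeR 4.0.16 (limma 3.58.1, R 4.3.3) by the quasi-likelihood test, two-sided, in 1 fit of the 3 Acomys days, with a prior count of 0.125 for fold changes. Adjusted p-values run over all 36053 features tested, identifier-only features included. The species difference was tested as an interaction over 14514 genes of the shared table, in 1 fit that also held the day 14 libraries of both species. The common biological coefficient of variation was 0.213 and 0.186. Where a gene had no count in a group, a lower bound against 3 counts over the group is given; with 1 to 3 counts, the ratio has a 95% counting interval that covers counting error only. Alternatives were RLE scaling, no filter, DESeq2 1.42.0, the compared groups only, symbol features only, a minimum of 2-fold, a replicate block and leaving out each library, which for the keratin family and Tchh was added after seeing the data. On simulated data with known changes in 200 of 36053 features, the day 7 test recovered 81% of 2-fold and 100% of 4-fold changes. With changes in 200 of 14514 genes, the species test recovered 38% and 97%. The changed features were well counted and all others were left unchanged, unlike the data here, where calls were common. Recovery for features with few counts was not tested.

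Genes were named by rule: 40 chosen genes, the 10 largest rises and 10 largest falls without overlap and with a mean of at least 5 CPM, and up to 3 called members per direction of each of 39 gene lists with a mean of at least 1 CPM. Other list members in the text, and the epidermal differentiation complex, were chosen after their values were seen. The members and lists were chosen with earlier results of these data known. A few genes that the rule names are not reported here.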

Additional observations from a re-analysis of the deposited data

Results flagged for a closer look

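Among 108 groups of 4 libraries checked over 56 genes, 11 held a library far from the other 3. Among sets of 4 values from a normal distribution, such a gap arises in about 1 in 20. That rate does not hold for skewed levels or for groups with few counts, such as Myh8. The 11 groups are therefore not read against it. In skin, replicate 2 was high for 4 hair and follicle genes: Krt25 at 251 CPM, Fabp9 at 106 CPM, Krtap6-5 at 41.6 CPM and Krt33a at 36.2 CPM. Skin replicate 1 was the only skin library with a count of Lce3f (0.306 CPM). In the wound, replicate 1 was high for Aldh3a1 (1.68 CPM) and was the only library with a count of Myh8 (0.0561 CPM). Wound replicate 2 was high for Cd3e (9.85 CPM) and low for Acta1 (352 CPM). Krt40 was at 0 CPM in wound replicate 3 and Krt33a at 0 CPM in wound replicate 4, beside 1 count in each of the other libraries.

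Of the 40 chosen genes, 18 had a day 7 change that differed between Acomys and Mus by the interaction test. Over all 14514 genes tested, 35.8% were called in that test. The difference, Acomys minus Mus, was above 0 for Myh3 (4.77), Gpnmb (2.22), Fn1 (2.01), Col1a2 (1.30), Krt5 (1.14) and Top2a (0.71). It was below 0 for Krt25 (-16.80), Arg1 (-7.21), Krt16 (-6.58), Adipoq (-3.74), Trem2 (-2.33), Col12a1 (-2.03), Lor (-1.69), Krt15 (-1.64), Timp1 (-1.58), Krt17 (-1.47), Pecam1 (-1.16) and Wnt5a (-1.10). The calls of Krt17, Lor and Top2a were lost in some fits with 1 library left out, and those of the other 15 genes were kept in all 15 such fits. The size of the Krt25 difference depends on the prior count, as Mus skin held 0 to 0.15 CPM of it.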

How the results depend on the processing

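Counts of called genes moved by over 1.5 times under 1 setting, a test against a minimum of 2-fold. It left 1399 higher and 1439 lower at day 7, 427 and 635 for the species difference, and 986 and 410 for day 14 against day 7. Leaving out 1 library at a time gave 3922 to 4667 higher and 3203 to 3892 lower at day 7, 2153 to 2551 and 2323 to 2870 for the species difference, and 2327 to 3033 and 1766 to 2503 for day 14. With the replicate number as a block the counts were 4348 and 3782, 2614 and 2901, and 2999 and 2252. The deposited column names repeat the same library suffixes on every Acomys day, in the order of the replicate numbers. Whether the suffixes or the numbers pair the samples is not given in the sources used here. The fits reported treated all libraries as unpaired. Deviations of same-numbered skin and day 7 wound libraries correlated at 0.03, -0.00, -0.14 and 0.01. Those of same-numbered day 7 and day 14 libraries correlated at 0.20, 0.03, 0.12 and 0.01. A differently numbered pair, skin replicate 3 and day 7 wound replicate 1, reached 0.22. Such values cannot decide whether libraries shared an animal. The share of day 7 calls that were higher ran from 49.3 to 56.9% over the settings. With symbol features only, 4592 were called higher and 4628 lower at day 7.

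Genes whose sign turned were not called in the fit reported. At day 7 these were Krt17 (-0.0053 with symbol features only, -0.18 to 0.52 with 1 library left out) and Krt5 (-0.14 to 0.28). For the species difference they were Myh8 (-0.30 with the replicate block, -0.27 with DESeq2, -1.27 to 0.54 with 1 library left out) and Myod1 (-0.13 with the block, -0.12 to 0.83). With 1 library left out they were also Cd3e (-0.64 to 0.27), Postn (-0.44 to 0.065), Krt6a (-0.15 to 0.21), Mki67 (-0.0051 to 0.41) and Scd1 (-0.59 to 0.055). For day 14 against day 7 they were Cd3e (-0.11 to 0.58) and Wnt5a (0.030 with no filter, -0.17 to 0.079). The block also ended the calls of Fos at day 7 and Krt17 for the species difference. Of the gene by setting values at day 7, 3304 kept their call and direction, 114 lost the call and 6 gained one. The cause was not tested.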

Other observations

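The keratin family, as 1 group chosen after its values were seen, was called lower in the wound more often than higher. Of 44 keratin genes 40 were tested, 5 were called higher, 19 lower and 16 not called, with a median of -4.24. Over all genes tested, 28.9% were called higher and 25% lower. Without skin replicate 2, which stood out in hair keratins, the median was -1.92 and 15 were lower. The count of lower members was also 15 or 16 without any 1 wound library, with medians from -4.35 to -4.10. The higher members were Krt6a, Krt6b, Krt14, Krt24 and Krt42. Krt24 stood at 2.39, 2.46, 1.54 and 4.83 CPM in skin and 59.9, 54.9, 63.3 and 81.6 CPM in the wound, with no overlap (4.53, SE 0.39, adjusted p = 8.3e-07 in edgeR's quasi-likelihood test). Krt42 stood at 4.72, 6.77, 4.18 and 6.35 CPM in skin and 50.5, 53.0, 45.4 and 37.4 CPM in the wound (3.08, SE 0.17). At day 14 both were lower than at day 7, Krt24 by -5.91 and Krt42 by -4.34. Keratins are close in sequence, and the counting may have divided reads between them.

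Blood and liver genes were followed as genes of other cells the tissue could hold. Of 4 red blood cell genes present 2 were tested and neither was called (median 0.18), although both were called higher without wound replicate 2. Of 5 liver and other tissue genes 3 were lower and 0 higher, median -2.34. They were Alb, Apoa1 and Apob, the last at 8.27, 15.9, 6.82 and 12.4 CPM in skin and 1.07, 0.405, 0.826 and 0.480 CPM in the wound. The source of this RNA was not tested.

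Features with only an assembly identifier took the rest of the counts. Of 20770 tested, 3237 (15.6%) were called higher in the wound and 4071 (19.6%) lower.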
